A study of Mus musculus with 4 samples.

Results

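The E-cadherin gene Cdh1, the catenin genes Ctnna1, Ctnnb1 and Ctnnd1, the epithelial adhesion gene Epcam, the mesenchymal filament gene Vim and the transcription factor genes Zeb1, Zeb2, Snai1 and Snai2 were followed across mouse lung tumors and non-tumor lung of 2 genotypes. These genes were chosen by name from results already known on the same arrays, so their differences are given as descriptions and carry no test. All 10 of 10 were found, on 14 probes, among 32300 genes or transcripts on 41170 probes. A probe was taken where its RefSeq accession belonged to 1 of these genes.

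Gene expression was measured in 4 groups with 1 array each, every array holding RNA pooled from 8 mice: Nrf2-/- tumor, Nrf2+/+ tumor, Nrf2-/- non-tumor lung and Nrf2+/+ non-tumor lung. Nrf2-/- animals lacked the transcription factor gene Nrf2 (Nfe2l2) and Nrf2+/+ animals carried it. All mice were female, of the ICR strain and 6 months old. All, the Nrf2+/+ animals included, had received 1 g/kg of the lung carcinogen urethane by intraperitoneal injection 16 weeks earlier, so no group was free of the carcinogen. Tumors measured between 1.0 and 1.5 mm across and were cut free of surrounding tissue. Each group is 1 pool, so the spread between animals is unknown and every difference below describes a pair of pools.

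E-cadherin is the transmembrane protein that joins neighbouring epithelial cells. Its cytoplasmic tail holds p120-catenin (Ctnnd1) and beta-catenin (Ctnnb1), and beta-catenin links it through alpha-catenin (Ctnna1) to actin. In the epithelial-mesenchymal transition, zinc finger factors of the Snail and Zeb families bind E-box sequences and repress Cdh1, cells lose epithelial adhesion proteins such as Epcam, and the filament protein vimentin is made. In lung, E-cadherin and Epcam are made by airway and alveolar epithelium, while vimentin and the Zeb and Snail factors are found mainly in fibroblasts, vessels and other mesenchymal cells.

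Values are processed signals in intensity units, which are not scaled between arrays. The 75th percentile of signal was 536 on the Nrf2-/- tumor array, 515 on the Nrf2+/+ tumor array, 685 on the Nrf2-/- non-tumor array and 706 on the Nrf2+/+ non-tumor array. Differences are log2 values after each array was divided by that percentile, and a gene was counted as apart where 2 arrays differed by at least 2-fold. The error given with a difference is that of the scanner software, about 0.20 for bright spots, and covers measurement only. Between 53.5% and 62.9% of probes were well above background, and no spot was saturated. The Nrf2+/+ non-tumor array lay on slide 1 and the other arrays on slide 2, so slide and group cannot be told apart where tumor is set against non-tumor lung in Nrf2+/+ mice or the genotypes are set against each other in non-tumor lung. The targeted gene matched the labels: Nfe2l2 had signals of 6.94 in Nrf2-/- tumor and 7478 in Nrf2+/+ tumor, and of 5.13 in Nrf2-/- non-tumor lung against 7913 in Nrf2+/+ non-tumor lung. Read at the dimmest signal still well above background, the Nrf2-/- pools were lower by 265-fold in tumor and 374-fold in non-tumor lung. These folds take the background as the scanner software subtracted it. Whether the Nfe2l2 probes lie in the deleted part is not known here. The labelled tissue matched its markers, since Sftpc, the surfactant protein gene that defines alveolar type 2 cells, had signals between 251628 and 276632 on the 4 arrays.

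**Figure D1:**
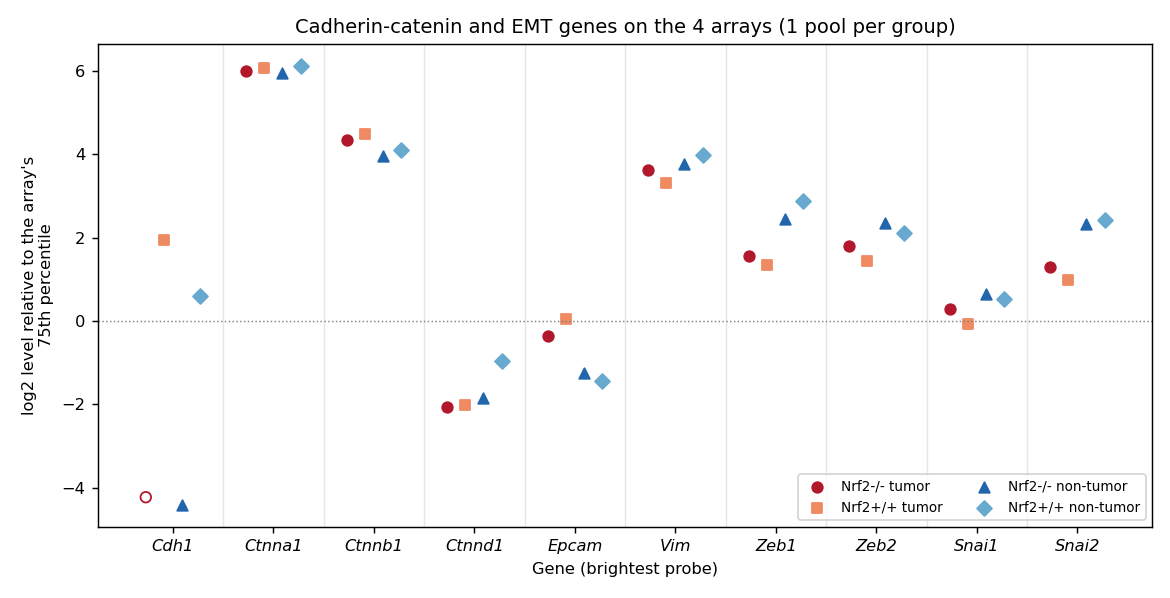
Log2 level of each gene relative to the 75th percentile of its array (vertical axis) for the 10 genes (horizontal axis), 1 point per array and no error bars because each group is 1 pool. The open circle is a level not well above background. Cdh1 splits by genotype, with both Nrf2-/- points more than 4 log2 units below the percentile, whereas Zeb1 and Snai2 are lower in both tumors than in both non-tumor pools.

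Cdh1 was the member set apart by genotype. It had signals of 28.6 in Nrf2-/- tumor and 1968 in Nrf2+/+ tumor, and of 32.2 in Nrf2-/- non-tumor lung against 1065 in Nrf2+/+ non-tumor lung. The Nrf2-/- tumor signal was not well above background. Read at 29.4, the dimmest signal still well above background on that array, Cdh1 was 69.8-fold lower in Nrf2-/- tumor. In non-tumor lung the difference was -5.01 with an error of 0.30, and here both arrays were well above background. With normexp background correction, which raises low signals, the differences were smaller, at -4.35 in tumor and -3.41 in non-tumor lung. The fold given for tumor is thus not a lower limit.

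The array carries 10 spots of the single Cdh1 probe, which show how exact the reading was on each array. In Nrf2-/- tumor the 9 usable spots had a lowest signal of 12.0, a median of 26.5 and a highest of 54.2, and 3 of the 9 were well above background. In Nrf2+/+ tumor the 10 spots had a lowest signal of 1686, a median of 1937 and a highest of 2584. No spot of the Nrf2-/- tumor array came near the lowest spot of the Nrf2+/+ tumor array. In Nrf2-/- non-tumor lung the 10 spots had a lowest signal of 22.3, a median of 30.2 and a highest of 60.2, all well above background. In Nrf2+/+ non-tumor lung the 9 usable spots had a lowest signal of 942, a median of 1095 and a highest of 1140. Spots of the 2 genotypes did not overlap in either tissue, though small differences can do this too. The Ctnnb1 spots in non-tumor lung, up to 11162 in Nrf2-/- and from 11712 in Nrf2+/+ mice, did not overlap either. The SD between Cdh1 spots on the log2 scale was 0.64 and 0.17 in Nrf2-/- and Nrf2+/+ tumor. In Nrf2-/- and Nrf2+/+ non-tumor lung it was 0.38 and 0.09. The Cdh1 spots repeat 1 probe on 1 pool and are not replicates, and no second Cdh1 probe was matched. The genotype difference is thus that of 1 probe, and the rest of the Cdh1 transcript was not measured.

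**Figure D2:**
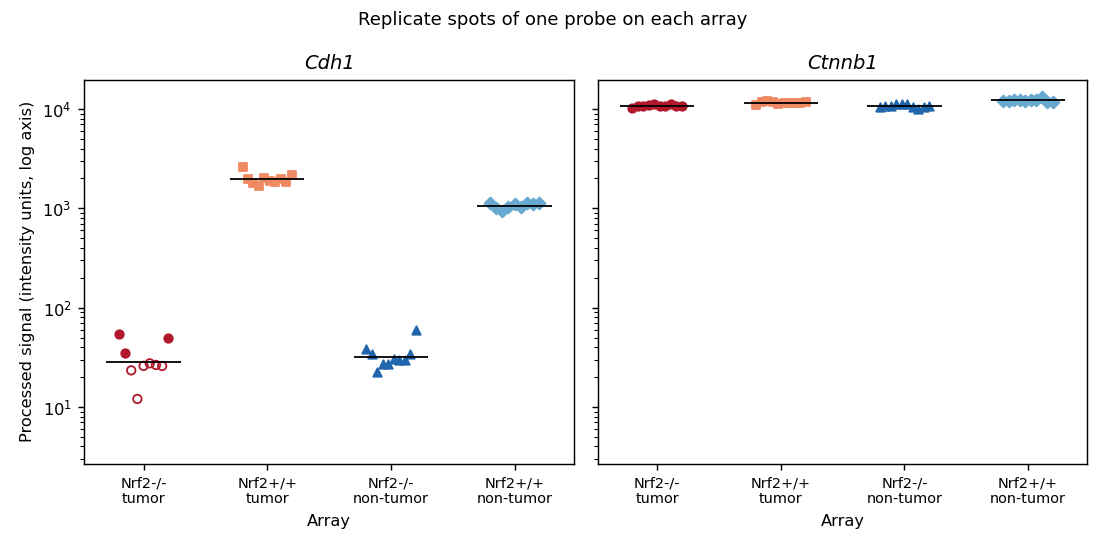
Processed signal (vertical log axis, intensity units) of the 10 spots of 1 Cdh1 probe (left) and 1 Ctnnb1 probe (right) on each array, with spots that failed a quality flag left out. Horizontal lines are geometric means, and open circles are spots not well above background. The highest Cdh1 spot is at 60.2 on the Nrf2-/- arrays and the lowest at 942 on the Nrf2+/+ arrays, while Ctnnb1 spots lie between 10102 and 13171 on all 4.

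The catenins did not share the large genotype difference of Cdh1. Beta-catenin, measured by a probe that also has 10 spots, had Ctnnb1 signals of 10798 in Nrf2-/- and 11577 in Nrf2+/+ tumor, and 10740 in Nrf2-/- and 12215 in Nrf2+/+ non-tumor lung. The genotype difference was -0.16 in tumor and -0.14 in non-tumor lung, each with an error of 0.20. The 4 levels lay within 2-fold of each other, tumor above non-tumor lung by 0.36 in Nrf2-/- and 0.38 in Nrf2+/+ mice, and the second Ctnnb1 probe gave -0.08 in tumor and 0.09 in non-tumor lung. Alpha-catenin was as even: Ctnna1 signals were 34470 in Nrf2-/- tumor and 34466 in Nrf2+/+ tumor, and 42452 in Nrf2-/- non-tumor lung against 49069 in Nrf2+/+ non-tumor lung, and its 4 differences lay between -0.17 and 0.05 with errors of 0.20. The sign of the 2 tumor differences of Ctnna1 changed with the scaling.

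p120-catenin, which holds cadherins at the cell surface, was the catenin that differed most. Ctnnd1 had signals of 127 in Nrf2-/- and 128 in Nrf2+/+ tumor, and 189 in Nrf2-/- and 365 in Nrf2+/+ non-tumor lung. The Nrf2+/+ non-tumor array stood above the other 3. The difference was -1.06 for tumor against non-tumor lung in Nrf2+/+ mice and -0.90 for Nrf2-/- against Nrf2+/+ non-tumor lung, with errors of 0.21. Both rest on the 1 array of slide 1. Within slide 2 the tumor difference in Nrf2-/- mice was -0.22 and the genotype difference in tumor was -0.07. A second Ctnnd1 probe was well above background on the Nrf2+/+ non-tumor array alone, and averaging both probes brought the Nrf2+/+ tumor difference to -0.53. That difference passed 2-fold under 4 of 8 settings, and was -0.75 with median scaling, -0.81 with normexp and -0.96 with quantile normalization. Among the passes were the main setting, the filter on genes well above background on all 4 arrays and the submitters' table, all at -1.06. That filter cannot move the value, and the submitters' table holds nearly the same signals.

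Taken over the 10 genes, 1 was lower by at least 2-fold in Nrf2-/- non-tumor lung and none was higher, where 7.63% of 20190 genes tested were apart (4.56% lower and 3.07% higher). In tumor 1 was lower and none higher, where 7.99% of 17824 genes tested were apart (3.62% lower and 4.36% higher). In both tissues that gene was Cdh1. The other 9 lay between -0.90 and 0.24 in non-tumor lung and between -0.42 and 0.37 in tumor. In tumor the 5 mesenchymal members, Vim at 0.30, Zeb1 at 0.22, Zeb2 at 0.37, Snai1 at 0.35 and Snai2 at 0.32, were all slightly above 0 in Nrf2-/- mice, and Epcam was at -0.42. The errors of these 6 differences were 0.20 to 0.21, and none reached 2-fold under any of the settings tried.

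Lower levels in both Nrf2-/- tissues were uncommon across the array: 202 of 17461 genes measured in both (1.16%) were lower by at least 2-fold in each. That count reads a signal not well above background as it stands.

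Genes beside Cdh1 on its chromosome did not show its genotype difference. The 5 nearest measured genes on each side, in RefSeq order, were Slc7a6os, Prmt7, Smpd3, Zfp90 and Cdh3 before it and Tango6, Has3, Chtf8, Utp4 and Sntb2 after it. Their genotype differences ran from -0.27 to 1.37 in non-tumor lung and, for the 8 with a measured level in tumor, from -0.48 (Utp4) to 1.33 (Smpd3). Has3 and Cdh3 were not well above background in either tumor pool. The immediate neighbour Tango6, a factor of Golgi organisation, was at -0.12 and -0.08. Smpd3, a sphingomyelinase, was higher in both Nrf2-/- tissues: it had 156 in Nrf2-/- tumor and 59.6 in Nrf2+/+ tumor, and 541 in Nrf2-/- non-tumor lung against 215 in Nrf2+/+ non-tumor lung. Cdh3, the neighbouring gene of P-cadherin, was dim in non-tumor lung, with 22.6 in Nrf2-/- and 25.7 in Nrf2+/+ mice.

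The 5 named genes whose 4 levels were most like those of Cdh1 were found by Euclidean distance between centred log2 profiles over the 4 arrays, among 12783 genes. Rmnd1, a factor of mitochondrial translation, was nearest at a distance of 1.40. It had signals of 45.3 in Nrf2-/- and 1010 in Nrf2+/+ tumor, and 57.1 in Nrf2-/- and 1204 in Nrf2+/+ non-tumor lung, and its second probe was lower in Nrf2-/- mice by less, at -2.87 in tumor and -2.82 in non-tumor lung. Firre, an X-linked long noncoding RNA, followed at 1.48, with 75.3 and 1547 in Nrf2-/- and Nrf2+/+ tumor and 51.0 and 830 in Nrf2-/- and Nrf2+/+ non-tumor lung. Firre was also the gene of these 5 nearest to Cdh1 in being higher in Nrf2+/+ tumor than in Nrf2+/+ non-tumor lung, by 1.35 against 1.34 for Cdh1. The complement gene C3 came next at 2.14, then the interferon-inducible GTPase gene Ifi47 at 2.45 and Tmem89 at 2.72. None of the other 9 members ranked near by distance: Ctnnd1 was at rank 1166, Ctnnb1 at 1942, Epcam at 2168 and Ctnna1 at 3131. Vim, Zeb1, Snai1, Zeb2 and Snai2 were between 8343 and 11082. With Pearson's r over the 4 levels in place of distance, 0 of the 5 genes were the same. Unlike distance, r does not depend on the size of the differences. Among the members r with Cdh1 was 0.84 for Ctnna1, 0.50 for Ctnnb1, 0.39 for Ctnnd1 and 0.24 for Epcam. For Vim, Zeb1, Zeb2, Snai1 and Snai2 it was between -0.58 and -0.07.

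**Figure D3:**
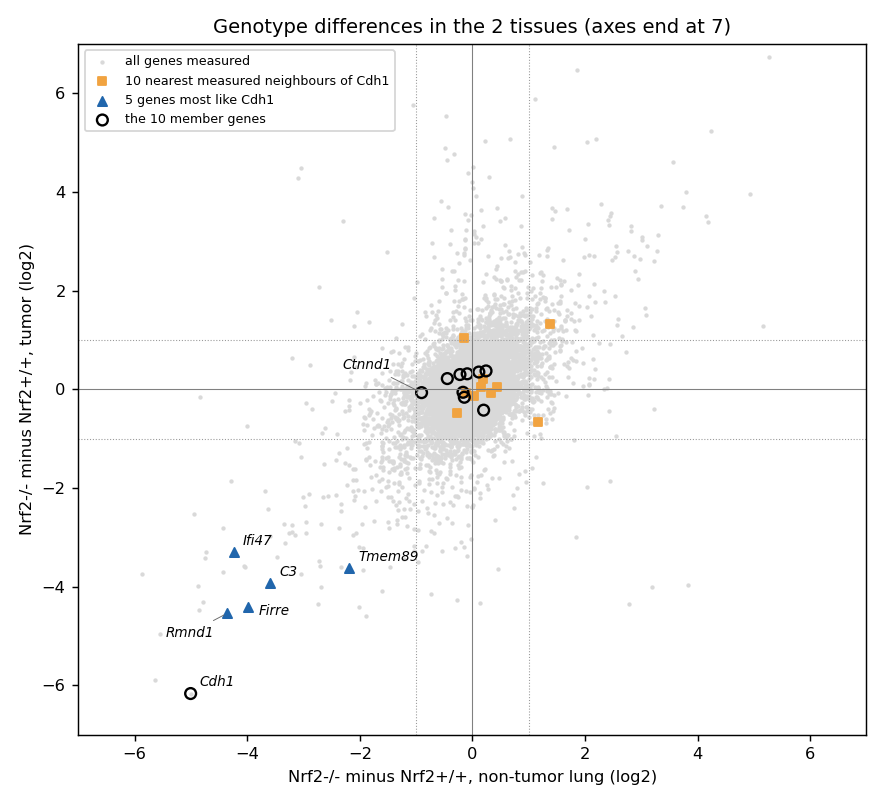
Nrf2-/- minus Nrf2+/+ difference (log2) in non-tumor lung (horizontal) and in tumor (vertical) for each measured gene (gray), the 10 nearest measured neighbours of Cdh1, the 5 genes most like it and the 10 members, with dotted lines at 2-fold. Both axes end at 7, so Nfe2l2 lies outside. Cdh1 lies at -5.01 and -6.16, far from the other 9 members, which gather near 0, and the tumor value includes a level not well above background.

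Markers of other cells differed between genotypes too. Over all genes tested, 4.36% were higher and 3.62% lower by at least 2-fold in Nrf2-/- tumor, and 3.07% and 4.56% in Nrf2-/- non-tumor lung. In lists this short a count of 1 says little beside these shares. Mesothelial markers (Msln, Upk3b, Lrrn4, Wt1, Upk1b and Gpm6a) were higher by at least 2-fold in Nrf2-/- mice for 5 of 6 in tumor and for 4 of 6 in non-tumor lung, and their summed level, in multiples of the 75th percentile of the array, was 10.8 in Nrf2-/- and 5.33 in Nrf2+/+ tumor, and 31.0 in Nrf2-/- and 17.1 in Nrf2+/+ non-tumor lung. Club cell markers were lower by at least 2-fold in Nrf2-/- tumor for 2 of 4, with summed levels of 148 in Nrf2-/- and 289 in Nrf2+/+ tumor, and for 0 of 4 in non-tumor lung, with 397 in Nrf2-/- and 456 in Nrf2+/+ mice. Ciliated cell markers were lower for 4 of 6 in Nrf2-/- tumor, with a median of -1.15 and summed levels of 9.59 in Nrf2-/- and 11.3 in Nrf2+/+ tumor, and for 0 of 6 in non-tumor lung, with 14.9 and 16.0. The bright gene Tubb4b made up most of both tumor sums, with signals of 4591 and 4665. It was at -0.08 between genotypes in tumor, so these sums say little of the dimmer ciliated genes. Alveolar type 2 markers were within 2-fold for 8 of 8 in both tissues, with summed levels of 1410 in Nrf2-/- and 1321 in Nrf2+/+ tumor, and 866 in Nrf2-/- and 731 in Nrf2+/+ non-tumor lung. Macrophage markers were higher by at least 2-fold for 1 of 5 in Nrf2-/- tumor, with summed levels of 57.4 in Nrf2-/- and 31.6 in Nrf2+/+ mice, and for 0 of 5 in non-tumor lung, with 62.0 and 45.5. Fibroblast markers were higher for 1 of 7 in Nrf2-/- tumor, with 133 in Nrf2-/- and 102 in Nrf2+/+ mice, and for 0 of 7 in non-tumor lung, with 163 and 125. Every one of these measured markers was well above background on all arrays, except Wt1 in Nrf2+/+ tumor, Ccdc39 in both tumors and Dnah5 in Nrf2-/- tumor. The part of these cells in the Cdh1 difference was not tested, and in pooled tissue fewer cells of a type and less RNA per cell cannot be told apart. Whether the Cdh1 difference holds beyond its 1 probe was not tested either. Of 27 measured genes of the list of epithelial identity, which holds no club or ciliated cell marker, 1 was higher and 1 lower by at least 2-fold in non-tumor lung (median 0.17, against 0.02 over all genes) and 0 were apart in tumor (median -0.07, against -0.01).

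The second question was how these genes differed between tumor and non-tumor lung in each genotype. The 2 tumor comparisons use different arrays. In Nrf2+/+ mice 2 of the 10 members were higher by at least 2-fold in tumor and 3 lower, where 23.3% of 19913 genes tested were apart (8.08% higher and 15.3% lower). The 2 higher were the epithelial adhesion genes Epcam and Cdh1, and the 3 lower were Zeb1, Snai2 and Ctnnd1. In Nrf2-/- mice 1 member, Snai2, was lower and none was higher, where 14.5% of 19426 genes tested were apart (5.51% higher and 8.99% lower). With median scaling 1 was higher, Epcam at 1.01, and none lower, since Snai2 was then at -0.91, and with normexp Snai2 was at -0.96. The median of the 10 differences was -0.63 in Nrf2+/+ mice and -0.18 in Nrf2-/- mice, against -0.03 and -0.02 over all genes tested.

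Epcam, a homophilic adhesion protein of epithelia and carcinomas, had higher levels in tumors of both genotypes, past 2-fold in Nrf2+/+ mice. It had signals of 416 in tumor against 288 in non-tumor lung of Nrf2-/- mice, and 535 in tumor against 258 in non-tumor lung of Nrf2+/+ mice. The tumor difference was 0.88 in Nrf2-/- mice and 1.51 in Nrf2+/+ mice, each with an error of 0.21. Both tumors were above both non-tumor pools. Cdh1 was higher in Nrf2+/+ tumor by 1.34 with an error of 0.20. In Nrf2-/- mice its tumor level was not well above background and its non-tumor level was near that limit, so no fold is given.

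The genes of factors that repress Cdh1 had lower levels in tumors, by more than 2-fold for some. Zeb1 had signals of 1573 in tumor against 3726 in non-tumor lung of Nrf2-/- mice, and 1297 in tumor against 5224 in non-tumor lung of Nrf2+/+ mice, with differences of -0.89 and -1.55. Snai2, also called Slug, had 1310 in tumor against 3419 in non-tumor lung of Nrf2-/- mice, and 1010 in tumor against 3753 in non-tumor lung of Nrf2+/+ mice, with differences of -1.03 and -1.44. For both genes the tumor pools lay below the non-tumor pools, and the errors of the 4 differences were 0.20. Zeb2 had 1881 in tumor against 3488 in non-tumor lung of Nrf2-/- mice, and 1393 in tumor against 3036 in non-tumor lung of Nrf2+/+ mice, a difference of -0.54 in Nrf2-/- mice and -0.67 in Nrf2+/+ mice. Its second probe was dimmer and past 2-fold in both, at -1.10 and -1.24, and a further probe was below background on all 4 arrays. Snai1, the gene of the factor Snail, had 652 in tumor against 1067 in non-tumor lung of Nrf2-/- mice, and 490 in tumor against 1015 in non-tumor lung of Nrf2+/+ mice. Its differences of -0.36 and -0.60 had the same sign but did not reach 2-fold.

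Vimentin, an intermediate filament of mesenchymal cells, was lower in Nrf2+/+ tumor and close to non-tumor lung in Nrf2-/- mice. Vim had signals of 6592 in tumor against 9280 in non-tumor lung of Nrf2-/- mice, and 5137 in tumor against 11139 in non-tumor lung of Nrf2+/+ mice. The differences were -0.14 in Nrf2-/- mice and -0.66 in Nrf2+/+ mice, with errors of 0.20, and the first is smaller than its error. Whether the tumor differences of any member differ between the genotypes was not tested, since each group is 1 array.

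Snail and Zeb factors bind the E-box CACCTG, and the promoters of 6 members were at hand to be searched for it in RefSeq windows of the 250 bases before each transcription start (build GRCm38.p6). Cdh1 was not among these 6. The motif was chosen after the values and sequences had been seen. CACCTG on either strand, which reads CAGGTG on the other strand, was found for 2 of these 6 genes, Epcam and Snai1, and not in the windows of Ctnnb1, Ctnnd1, Vim or Zeb2. It is a common motif, held by 19.4% of all 27025 genes. By window, 2 of the 11 windows of these members hold it, against 17.2% of all 32851 windows, and 2.06% of all windows hold it at least 2 times. Both sequences are on the plus strand and are shown because they belong to the epithelial member that was higher in tumors and to a repressor gene at -0.36 and -0.60 there, with the E-box in capitals. Epcam is chr17:87635729-87635978, with matches starting 187 and 19 bases before the start, and Snai1 is chr2:167537945-167538194, with a match 126 bases before it.
Epcam: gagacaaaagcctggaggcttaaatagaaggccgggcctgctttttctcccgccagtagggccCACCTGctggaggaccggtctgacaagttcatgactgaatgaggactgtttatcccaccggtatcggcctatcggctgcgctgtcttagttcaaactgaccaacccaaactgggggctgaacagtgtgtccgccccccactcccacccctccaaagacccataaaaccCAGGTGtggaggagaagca
Snai1: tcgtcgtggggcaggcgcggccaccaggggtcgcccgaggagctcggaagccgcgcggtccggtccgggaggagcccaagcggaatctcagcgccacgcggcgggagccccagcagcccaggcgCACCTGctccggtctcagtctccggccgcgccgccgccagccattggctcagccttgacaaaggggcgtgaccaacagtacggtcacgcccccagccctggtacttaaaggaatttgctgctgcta
A match describes letters in the window and shows no binding. Of the epithelial list, 9 of 15 genes with an entry held the motif, against 19.4% of all 27025 genes, 3 of 20 of the adherens junction list and 1 of 16 of the list of transition drivers. No test was made of these counts.

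Many genes of epithelial identity were higher in tumors of both genotypes. Of 31 listed genes of epithelial identity 27 were measured, and 12 were higher by at least 2-fold and 1 lower in Nrf2-/- tumor, with a median of 0.93, and 16 higher and 1 lower in Nrf2+/+ tumor, with a median of 1.18. All 12 were higher in both genotypes, where 3.56% of 18786 genes tested were, and they included the splicing regulators Esrp1 and Esrp2, the zinc finger factor Ovol1, the ETS factors Elf3, Elf5 and Ehf, the keratins Krt8 and Krt18, the protease matriptase (St14) and its inhibitor Spint1, and the trafficking GTPase Rab25. Elf5 was the highest in Nrf2+/+ tumor, with 5769 in tumor against 2574 in non-tumor lung of Nrf2-/- mice (1.52), and 9916 in tumor against 2703 in non-tumor lung of Nrf2+/+ mice (2.33). Ovol1, known from human cell lines to repress ZEB1, had 67.6 in tumor against 37.6 in non-tumor lung of Nrf2-/- mice (1.20), and 108 in tumor against 37.4 in non-tumor lung of Nrf2+/+ mice (1.98). Its second probe was well above background in Nrf2+/+ tumor alone. Not all of the list was higher. Klf4, a factor of differentiated epithelium that endothelium also uses, was the 1 lower in Nrf2+/+ tumor, with 17017 in tumor against 39852 in non-tumor lung of Nrf2-/- mice (-0.87), and 16252 in tumor against 53009 in non-tumor lung of Nrf2+/+ mice (-1.25). Ovol2 and Ppl, a plakin of the cell envelope, were at -0.10 and -0.24 in Nrf2-/- mice and -0.32 and -0.36 in Nrf2+/+ mice. The 1 lower in Nrf2-/- tumor was the desmosomal cadherin Dsg2, which was not well above background there.

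Of 25 listed drivers of the transition and mesenchymal genes outside the members 22 were measured, and 1 was higher and 2 lower in Nrf2-/- tumor (median -0.20), and 2 higher and 3 lower in Nrf2+/+ tumor (median -0.32), where 14.5% and 23.3% of all genes were apart. With normexp 1 was higher and 0 lower in Nrf2-/- tumor, and 2 higher and 0 lower in Nrf2+/+ tumor. Foxc1, a forkhead factor of mesenchyme, was lower in both, at -1.30 in Nrf2-/- and -1.32 in Nrf2+/+ mice, where 6.57% of genes tested were lower in both. Twist2 was at -0.93 and -1.47, and the growth factor Tgfb2 at -1.15 and -0.92, in Nrf2-/- and Nrf2+/+ mice. Tgfbr1, a receptor for these growth factors, was higher in both, at 1.11 in Nrf2-/- and 1.06 in Nrf2+/+ mice, and the ligand Tgfb1 was at 0.36 and 0.40. Sox4, a factor that acts downstream of them, was at 0.25 in Nrf2-/- mice and 1.40 in Nrf2+/+ mice. Between genotypes S100a4, a calcium-binding protein of fibroblasts and macrophages, was near 2-fold in both tissues, at 0.91 in tumor and 0.94 in non-tumor lung, and the matrix protease Mmp2 was at 0.69 and 0.72. Hmga2, a chromatin protein, was lower in Nrf2-/- non-tumor lung by 1 probe, at -1.75, while its second probe was at -0.02. Fn1, the gene of fibronectin, was at -0.42 in Nrf2-/- non-tumor lung, and its dimmer probes were at -0.69 and 0.41.

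Of 30 listed partners of the adherens junction 27 were measured, with 2 higher and 1 lower in Nrf2-/- tumor (median -0.16) and 3 higher and 4 lower in Nrf2+/+ tumor (median 0.24), where 14.5% and 23.3% of all genes were apart. One of the 4 was Cdh3, whose tumor level was not well above background. With median scaling 7 were higher and 1 lower in Nrf2+/+ tumor. The 2 that were higher in both were the nectin family genes Nectin2, at 1.15 in Nrf2-/- and 1.46 in Nrf2+/+ mice, and Pvr, at 1.19 and 1.47. Nectins form the cadherin-independent adhesion of the junction. Of 4 Pvr probes 3 were past 2-fold in each genotype, though not the same 3. Ssx2ip, which anchors the nectin adhesion to actin, was at 0.68 and 0.82, but its dimmer second probe was at 0.27 and 0.08. Of the cadherins of other cells Cdh5 of endothelium was at -0.79 in Nrf2-/- and -1.34 in Nrf2+/+ mice, Cdh11 of mesenchyme at -0.88 and -1.25, and Cdh13 of vessels at -1.23 and -0.85, so that none of these passed 2-fold in both genotypes. Further Cdh11 probes gave -0.60 and -1.04, and -0.17 and -0.51, in Nrf2-/- and Nrf2+/+ mice. The second Cdh5 probe gave -0.92 and -2.19. Vinculin (Vcl), the actin linker of the junction, was at -0.82 and -1.15. N-cadherin, whose gene Cdh2 replaces Cdh1 in the classical switch, was not well above background on any array. Between genotypes 1 of the 27, Cdh16, was higher in Nrf2-/- non-tumor lung by at least 2-fold (1.05) and none was lower, and the lowest were Vcl at -0.73 and the phosphatase Ptprm at -0.67. In tumor the 1 counted as higher was Cdh3, not well above background in either tumor pool, and none was lower, so no listed partner with a measured level was apart.

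**Figure D4:**
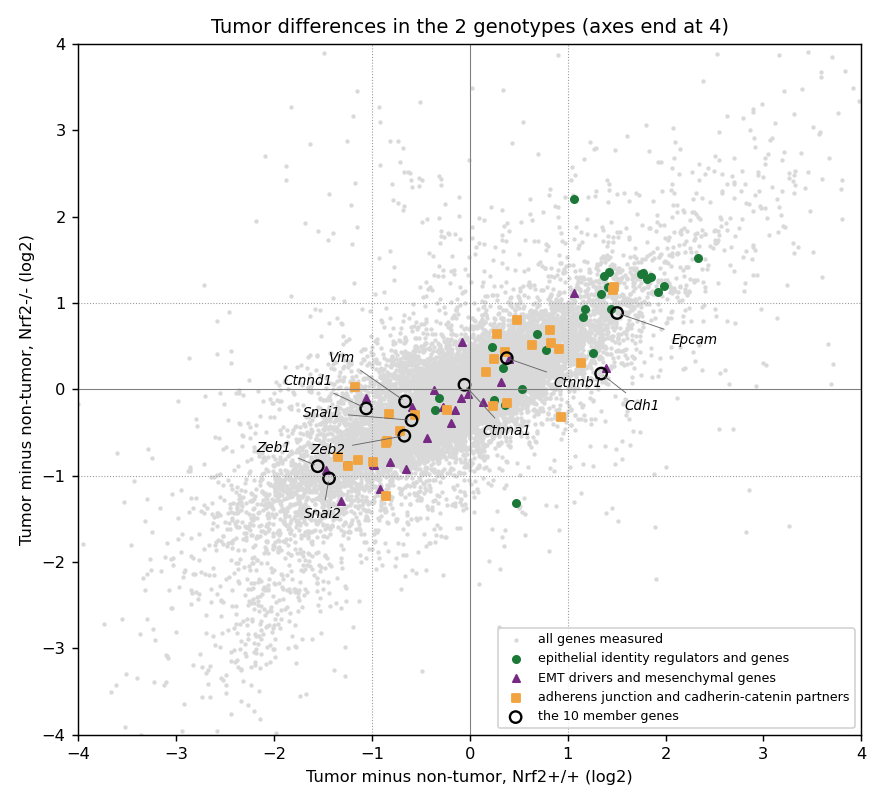
Tumor minus non-tumor difference (log2) in Nrf2+/+ mice (horizontal) and Nrf2-/- mice (vertical) for each measured gene (gray), 3 gene lists and the 10 members, with dotted lines at 2-fold and axes that end at 4. Epcam lies at 1.51 and 0.88 among the epithelial genes on the upper right, and Zeb1 and Snai2 lie on the lower left. The vertical value of Cdh1 includes a level not well above background.

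Cell markers differed between tumor and non-tumor lung as well. Over all genes tested, 5.51% were higher and 8.99% lower by at least 2-fold in Nrf2-/- tumor, and 8.08% and 15.3% in Nrf2+/+ tumor. In lists this short a count of 1 says little beside these shares. Alveolar type 2 markers were higher by at least 2-fold for 4 of 8 in Nrf2-/- tumor and 6 of 8 in Nrf2+/+ tumor, with summed levels of 1410 in tumor against 866 in non-tumor lung of Nrf2-/- mice, and 1321 in tumor against 731 in non-tumor lung of Nrf2+/+ mice. Endothelial markers were lower for 5 of 7 in Nrf2-/- tumor and 6 of 7 in Nrf2+/+ tumor, with sums of 183 in tumor against 354 in non-tumor lung of Nrf2-/- mice, and 138 in tumor against 340 in non-tumor lung of Nrf2+/+ mice. All of these markers were well above background on all 4 arrays. Fibroblast markers were lower for 1 of 7 in Nrf2-/- tumor, with a median of -0.63 and sums of 133 and 163 in tumor and non-tumor lung, and for 3 of 7 in Nrf2+/+ tumor, with a median of -0.46 and sums of 102 and 125. Mesothelial markers were lower for 6 of 6 in both. Alveolar type 1 markers were lower for 1 of 5 in Nrf2-/- tumor and 3 of 5 in Nrf2+/+ tumor. Of these markers Aqp5 went the other way, at 0.65 in Nrf2-/- and 0.70 in Nrf2+/+ mice. The part of these cells in the levels of Epcam, Zeb1, Snai2 and Vim was not tested.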

How the data were processed

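Per the labels' protocols, 500 ng of RNA pooled from 8 mice was amplified, labelled with Cy3 and hybridised to a whole-mouse-genome array. Per the file headers, the deposited intensity values came from Agilent Feature Extraction 10.7.3.1 (design 014868, annotated on mm9), with the background subtracted and spatial trends removed within each array; normalization between arrays is not given in the sources used here. Each column of the submitters' value table equalled the processed signal within 0.50% on all 45018 spots of its array, so the table holds linear, uncentred values, with column medians of 44.3 in Nrf2-/- tumor, 41.8 in Nrf2+/+ tumor, 61.9 in Nrf2-/- non-tumor lung against 71.0 in Nrf2+/+ non-tumor lung.

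From these files, control spots and spots with a non-uniformity or population outlier flag were left out, the log2 signal minus the 75th percentile of each array was taken, and spots of a probe were averaged. A probe counted as well above background where at least 50% of its spots were, and a gene was read from its probe of highest mean level. The files used hold no gene name column, so names came from probe accessions in a RefSeq table (GRCm38.p6, used for names and gene order only), which named 26686 probes and left 14484 unnamed. Members and lists were chosen with earlier results of these data known; the rules on spots and the E-box were set after the files were seen. Genes named from lists were the 3 highest and 3 lowest in tumors and the 2 highest and 2 lowest in Nrf2-/- non-tumor lung; members past 2-fold and a few others were named after their values were seen. A gene that this rule picks is not reported here.

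Differences of 2 arrays were counted at 2-fold among genes that exceeded this limit on 1 or both of them, and list members if any of the 4 arrays did. With 1 array per group no test was made, and the number of arrays limits the precision. The 7 alternatives were median scaling, the percentile over probes detected on all 4 arrays, quantile normalization, normexp background correction (limma 3.58.1, R 4.3.3, offset 50, on the median spot signal, since the files used hold no mean signal), the mean of a gene's probes, genes well above background on all 4 arrays, and the submitters' table. Other steps used Python 3.11.15, numpy 2.4.6, pandas 2.3.3 and matplotlib 3.10.9.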

Additional observations from a re-analysis of the deposited data

Results flagged for a closer look

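Cdh16, a cadherin of the adherens junction list, differed between tumor and non-tumor lung in opposite directions in the 2 genotypes. It had a signal of 2943 in Nrf2-/- tumor and 4715 in Nrf2-/- non-tumor lung, a difference of -0.33, and of 3251 in Nrf2+/+ tumor and 2338 in Nrf2+/+ non-tumor lung, a difference of 0.93, and each difference was larger than its error of 0.20. Relative to the 75th percentile of each array, its log2 level was 2.46 in Nrf2-/- tumor and 2.66 in Nrf2+/+ tumor. It was 2.78 in Nrf2-/- and 1.73 in Nrf2+/+ non-tumor lung. The Nrf2+/+ non-tumor array, the only one on slide 1, thus stood below the others. The difference of 0.93 and the genotype difference of 1.05 in non-tumor lung both rest on it. With 1 array per group the difference between the genotypes was not tested.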

How the results depend on the processing

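Each comparison is a pair of pools, so animal spread, slide and, for Cdh1, a second probe could not be examined. No paired analysis was possible because each group has 1 array, and for the same reason no replicate could be left out. Low signals limit Cdh1: its Nrf2-/- levels are near background, and its genotype difference ran from -5.09 to -3.41 in non-tumor lung and from -6.20 to -4.35 in tumor, with normexp at the small end of both. Of 276 values of members under the 7 alternatives, 268 stayed on the same side of 2-fold and 269 kept their sign. Many of these had no room to move. The filter on genes well above background on all 4 arrays leaves each value as it is, and the submitters' table holds nearly the same signals. Averaging probes likewise leaves a gene with 1 probe unchanged. The counts of settings that follow share this limit. Epcam, Zeb1 and Snai2 in Nrf2+/+ tumor were past 2-fold under all 8 settings, Snai2 in Nrf2-/- tumor under 6 (-0.91 with median scaling and -0.96 with normexp) and Ctnnd1 in Nrf2+/+ tumor under 4.

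The number of genes at least 2-fold apart was lower with normexp and with the filter on all 4 arrays, which tests fewer genes: 2288 and 2916 against 4649 for the Nrf2+/+ tumor comparison, 1248 and 1579 against 2817 for the Nrf2-/- tumor comparison, 457 and 544 against 1540 for the non-tumor genotype comparison, and 599 and 747 against 1424 for the tumor genotype comparison. That filter removes Cdh1, so 0 members in place of 1 were apart in each genotype comparison. With median scaling the median over all genes shifted by 0.30 in the Nrf2+/+ tumor comparison, 0.12 in the Nrf2-/- tumor comparison and 0.15 in the non-tumor genotype comparison. Higher genes made up 34.6% of those apart in the Nrf2+/+ tumor comparison, 56.2% with median scaling and 47.9% with normexp, and 38.0% in the Nrf2-/- tumor comparison, 58.5% with normexp. In the non-tumor genotype comparison they made up 40.2%, and 52.6% with median scaling. The median of the adherens junction list changed sign between settings in both genotype comparisons, from -0.06 to 0.19 in non-tumor lung and from -0.01 to 0.04 in tumor, while the epithelial list stayed between 0.77 and 1.06 in Nrf2-/- tumor and between 0.97 and 1.48 in Nrf2+/+ tumor. The cause of these shifts was not tested.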

Other observations

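Most of the listed ciliated cell genes, which belong to the airway epithelium that also makes E-cadherin, went the other way from the alveolar type 2 markers. Foxj1, the master factor of motile cilia, had signals of 35.0 in tumor against 415 in non-tumor lung of Nrf2-/- mice, and 79.3 in tumor against 513 in non-tumor lung of Nrf2+/+ mice. Tekt1, a protein of the ciliary axoneme, had 433 in tumor against 3894 in non-tumor lung of Nrf2-/- mice, and 873 in tumor against 4867 in non-tumor lung of Nrf2+/+ mice. Of 6 ciliated markers 5 were lower by at least 2-fold in tumor of each genotype. The other, Tubb4b, was at 0.27 in Nrf2-/- and 0.48 in Nrf2+/+ mice. Over all genes tested, 8.99% were lower in Nrf2-/- tumor and 15.3% in Nrf2+/+ tumor. Club cell markers were lower in 3 of 4 in Nrf2-/- tumor and in 1 of 4 in Nrf2+/+ tumor. Cckar, a receptor gene in the club cell list, had 116 in tumor against 998 in non-tumor lung of Nrf2-/- mice, and 1029 in tumor against 1145 in non-tumor lung of Nrf2+/+ mice.

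Of 6 smooth muscle and pericyte markers 4 were lower by at least 2-fold and 1 higher in Nrf2-/- tumor (median -1.30), and 2 were lower and 1 higher in Nrf2+/+ tumor (median -0.73). Over all genes tested, 8.99% were lower and 5.51% higher in Nrf2-/- tumor, and 15.3% and 8.08% in Nrf2+/+ tumor. Rgs5, a marker of pericytes, had 1116 in tumor against 213 in non-tumor lung of Nrf2-/- mice, and 1066 in tumor against 158 in non-tumor lung of Nrf2+/+ mice, differences of 2.74 and 3.21. Pdgfrb, of the same list, did not share this, at 0.10 in Nrf2-/- and -0.49 in Nrf2+/+ mice. The smooth muscle genes Myh11 and Des were lower by at least 2-fold in tumors of both genotypes, at -2.20 and -1.29 in Nrf2-/- mice and -1.91 and -1.31 in Nrf2+/+ mice. Acta2 was at -1.54 and Tagln at -1.32 in Nrf2-/- mice, and at -0.84 and -0.61 in Nrf2+/+ mice.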
